A study of Vulpes vulpes with 8 samples.

Results

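MHC class II presentation genes were followed through gingiva of red foxes (Vulpes vulpes) with and without hereditary hyperplastic gingivitis (HHG), an inherited disease in which the gum enlarges. The set was fixed by name: CD74, CIITA and the dog leukocyte antigen (DLA) genes DRA, DRB1, DQA1, DQB1, DMA, DMB, DOA and DOB. Every probe set that the platform annotation gives to 1 of these symbols alone was taken, and the annotation writes DRB1 as HLA-DRB1. This gave 19 probe sets for all 10 genes, out of 42924 probe sets without controls, and all 19 passed the filter on dim probe sets, which 25754 passed in all.

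RNA came from 5 affected foxes (19, 55 and 107, males, and 381 and 757, females) and 3 unaffected foxes (86 and 97, males, and 402, female), with 1 Affymetrix Canine 2 array per fox. Per the series' description, the disease was called by eye from early changes of the gum beside the teeth. Some foxes were sampled after euthanasia in the pelting season and others alive under anaesthesia in spring, and the labels do not say which, so season was not analysed here. The array reads fox RNA through dog sequences, and the labels give no age or genotype.

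MHC class II molecules display peptides from proteins taken up by a cell to helper T cells. An alpha and a beta chain (DR or DQ) pair in the endoplasmic reticulum, where CD74, the invariant chain, fills the peptide groove and routes the pair to endosomes. There DM, a dimer of DMA and DMB, removes the last fragment of CD74 and lets peptides exchange, and DO, a dimer of DOA and DOB, restrains DM. CIITA is the transactivator that, on a complex of RFX and NF-Y proteins bound to the promoters, turns these genes on together. Dendritic cells, Langerhans cells of the epithelium, macrophages and B cells carry class II, and in dogs T cells do so as well. In dogs DRB1, DQA1 and DQB1 differ widely between animals, while DRA hardly varies.

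The arrays were on a common scale, with median signals from 28.7 to 33.8 and 63.4% to 74.7% of probe sets above a background read from 42 probe sets for bacterial transcripts. Actin control probe sets at the 5' end of the transcript divided the foxes, with a signal of 7831 to 8868 in foxes 107, 757, 86 and 97 and of 1354 to 2336 in foxes 19, 55, 381 and 402. Results are therefore also given within these sets, which each hold affected and unaffected foxes. 1 keratin and 1 collagen gene were above background in every fox, which does not by itself identify gingiva. KRT76, a keratin of oral epithelium, read 5621 to 14821 in affected foxes, against 1029 to 16326 in unaffected foxes. COL1A2 read 2486 to 6504 in affected foxes, against 1570 to 6438 in unaffected foxes.

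The alpha chain gene DLA-DRA read 1500, 4798, 6248, 4628 and 6113 in affected foxes 19, 55, 107, 381 and 757, against 8014, 2964 and 3911 in unaffected foxes 86, 97 and 402. Its partner DRB1 read 1603, 5356, 6255, 5266 and 5695 in the affected foxes, against 6370, 3356 and 4065 in the unaffected foxes. In both genes the lowest fox was affected fox 19 and the highest was unaffected fox 86, so the range of the affected foxes lay across that of the other unaffected foxes and the groups overlapped. The second DRA probe set gave 714 to 2920 in affected foxes, against 1019 to 3761 in unaffected foxes.

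DLA-DQA1, the alpha chain of DQ, read 1697, 2359, 7553, 4762 and 7083 in affected foxes 19, 55, 107, 381 and 757, against 9584, 3568 and 4511 in unaffected foxes 86, 97 and 402. Here fox 55 stood with fox 19 at the low end, unlike in DRA and DRB1. The second DQA1 probe set gave the same picture, at 204 and 209 in foxes 19 and 55 and 536 to 1018 in the other affected foxes, against 358 to 1884 in unaffected foxes. DLA-DQB1, the beta chain of DQ, read 592, 1937, 2784, 2482 and 2402 in the affected foxes, against 4693, 1131 and 1659 in the unaffected foxes. Fox 55 was thus among the middle foxes in DQB1.

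CD74 read 1198, 5797, 6031, 4183 and 6367 in affected foxes 19, 55, 107, 381 and 757, against 7594, 3289 and 3633 in unaffected foxes 86, 97 and 402. All 3 CD74 probe sets ranked fox 19 lowest and fox 86 highest, with a highest signal over lowest signal of 6.34 to 9.42 times. Across the 8 foxes the 3 probe sets followed each other with Pearson's r of 0.98 to 0.99, given as a description since they read the same RNA.

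The brightest probe sets of the peptide exchange genes had the same foxes at their ends. DLA-DMA read 153, 225, 476, 312 and 427 in affected foxes 19, 55, 107, 381 and 757, against 682, 201 and 314 in unaffected foxes 86, 97 and 402. DLA-DMB read 183, 447, 524, 376 and 505 in the affected foxes, against 816, 210 and 362 in the unaffected foxes. Fox 19 was lowest and fox 86 highest in both. The second DMA probe set departed from the first at both ends, with fox 381 lowest at 58.4 and fox 107 highest at 262, above fox 86 at 212, and the pair had an r of 0.58. The 3 DMB probe sets followed each other at 0.93 to 0.99.

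Signals of the DO genes and CIITA stood nearer the arrays' background, which was 7.42 to 16.6. DLA-DOA read 5.69, 31.2, 47.2, 23.7 and 46.0 in affected foxes 19, 55, 107, 381 and 757, against 91.2, 22.6 and 45.4 in unaffected foxes 86, 97 and 402, and fox 19 was below its array's background. DLA-DOB read 16.1 to 32.0 in affected foxes, against 11.8 to 57.6 in unaffected foxes. CIITA read 30.2, 32.2, 51.7, 33.3 and 22.2 in the affected foxes, against 68.9, 39.5 and 38.0 in the unaffected foxes. Fox 86 was highest in all 3 of these probe sets. The second CIITA probe set ran against the first (r of -0.31), with 10.3 to 41.9 in affected foxes, against 5.55 to 44.1 in unaffected foxes, fox 86 lowest there, and 1 fox in each group below background. The second DOA probe set was below background in 2 affected foxes and 1 unaffected fox.

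**Figure D1:**
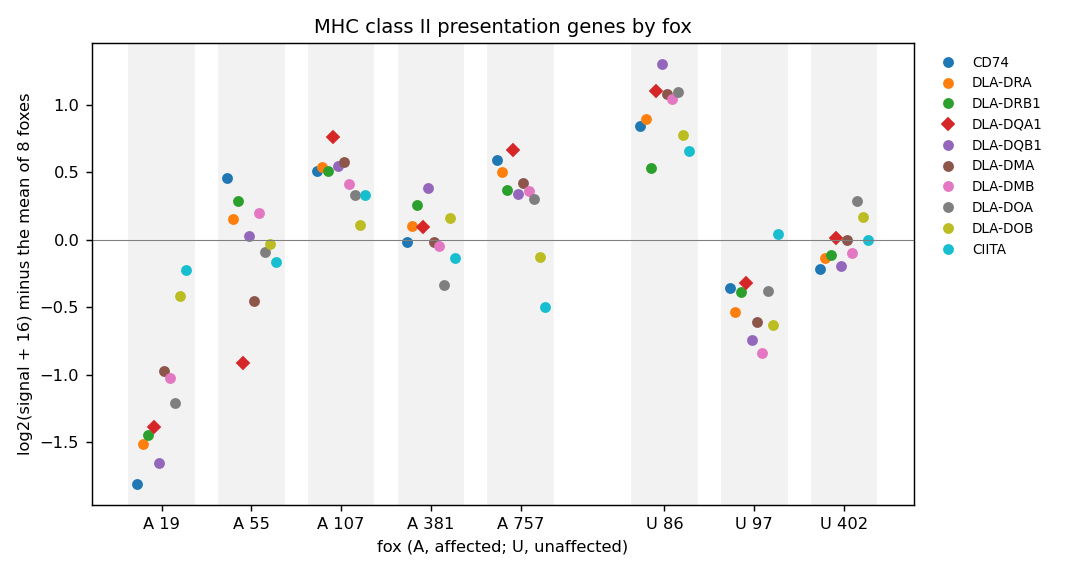
Level of each gene in each fox (A, affected, 5 foxes; U, unaffected, 3 foxes), as log2(signal + 16) minus its mean over the 8 foxes, with 1 point per gene from its brightest probe set and DLA-DQA1 as diamonds. Fox 19 lies lowest for most genes and fox 86 highest, and DLA-DQA1 of fox 55 lies at -0.92 below its other genes.

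The first comparison asked whether class II genes differ between affected and unaffected gingiva. None of the 19 probe sets differed in limma (smallest adjusted p 0.99992, smallest unadjusted p 0.141), where 0% of all probe sets tested passed at an adjusted p under 0.05 and 2.69% had an unadjusted p under 0.05. In 18 of the 19 the mean was lower in affected foxes, as it was in 56.5% of all probe sets tested, with a median difference of -0.19 on the log2(signal + 16) scale beside -0.037 over all. The groups overlapped in all 19, and 2.43% of all probe sets tested had groups that did not overlap.

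The interval of each difference was wide. CD74 averaged 4715 ± 2138 in affected and 4839 ± 2392 in unaffected foxes (SD, n = 5 and n = 3), a log2 difference of -0.14 ± 0.53 (SE) with a 95% interval from -1.33 to 1.05. DLA-DRA differed by -0.12 (-1.19 to 0.96) and DRB1 by -0.016 (-0.98 to 0.94). The largest differences in size were those of the second DQA1 probe set, -0.69 (-2.13 to 0.75), DOA, -0.54 (-1.44 to 0.37), the first DQA1 probe set, -0.42 (-1.59 to 0.75), and CIITA, -0.37 (-0.88 to 0.15). All 19 intervals held 0. In bulk gingiva fewer cells of a type and less RNA per cell cannot be told apart.

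**Figure D2:**
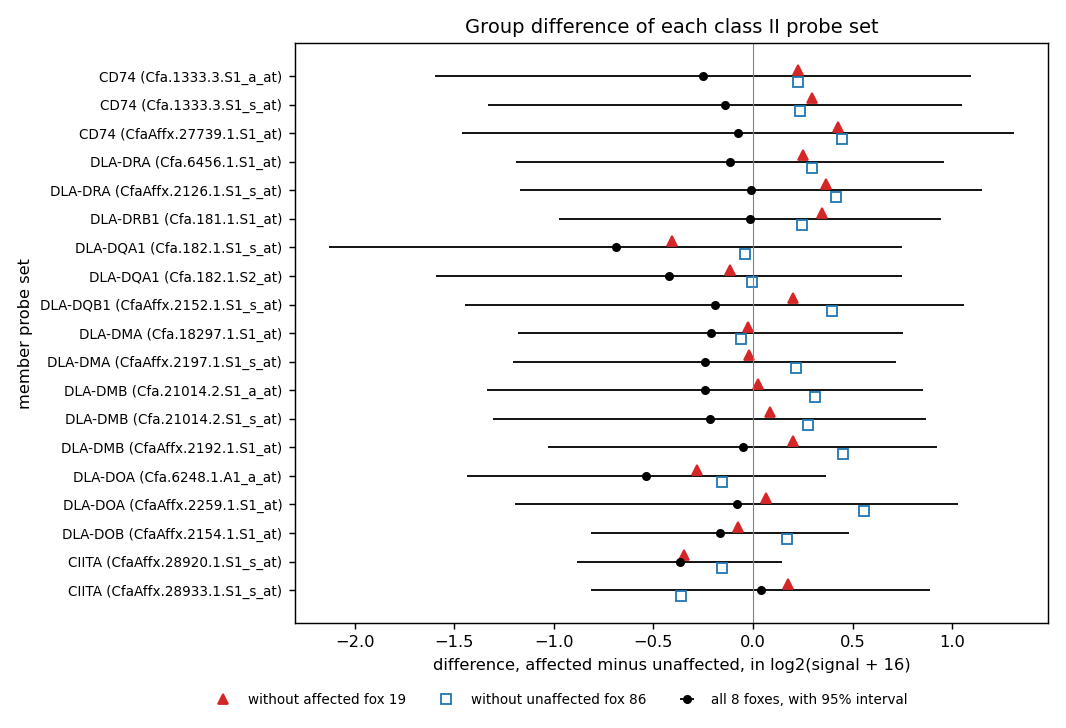
Difference between affected (n = 5) and unaffected foxes (n = 3) for each of the 19 probe sets, with the 95% interval from limma as a bar, and the difference without affected fox 19 (triangles) or unaffected fox 86 (open squares). Every bar crosses 0, and most markers move to the right of 0 when either fox is left out.

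The direction rested on single foxes in most probe sets. Without unaffected fox 86 the mean was lower in affected foxes in 6 of the 19 probe sets, with a median difference of 0.24, and CD74 differed by 0.24 and DRA by 0.29. Without affected fox 19 it was lower in 7 of 19, with a median of 0.083. Without any other single fox it was lower in 16 to 19. Within the foxes of high 5' actin it was lower in 3 of 19, with a median of 0.29, and within those of low 5' actin, where 1 fox was unaffected, in 17 of 19, with a median of -0.28. The 2 DQA1 probe sets kept a mean lower in affected foxes without each single fox, from -1.21 to -0.040 and from -0.71 to -0.0042, though they did not within the foxes of high 5' actin (0.19 and 0.32). The first CIITA probe set (-0.49 to -0.16) and the first DOA probe set (-0.89 to -0.16) also kept a mean lower in affected foxes without each single fox, and within the foxes of high 5' actin as well (-0.43 and -0.040).

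The spread from fox to fox was larger than the difference in 18 of the 19 probe sets, the first CIITA probe set (0.32 beside a difference of -0.37) being the exception. The standard deviation within groups was 0.91 for CD74, 0.81 for DRA, 0.72 for DRB1, 0.89 for DQA1 and 0.96 for DQB1 on the log2 scale, against a median of 0.32 over all probe sets tested. CD74 varied more than 97.4% of all probe sets tested and more than 96.5% of probe sets of like brightness. In 17 of the 19 probe sets the spread was larger than in 90% of all tested, the exceptions being the first CIITA probe set (51.2%) and DOB (75.2%). Fox 19 was lowest of the 8 in 14 of the 19 probe sets, as in 14.7% of all probe sets tested, and fox 86 was highest in 17, as in 17.8% of all. Both held in 14 of the 19, and in 4.55% of all probe sets tested.

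Whether the genes vary together was asked next, with CD74 set against each of the other 9 genes over the 8 foxes. CD74 and DRA had a Pearson's r of 0.98 and a Spearman's rho of 0.98 (two-sided exact permutation p = 4.96e-05 and p = 0.000397), and r was 0.92 without foxes 19 and 86, the 2 farthest from the median. CD74 and DRB1 gave an r of 0.98 and 0.90 without those 2 foxes, and CD74 and DMB 0.90 and 0.89. For these 3 genes the Benjamini-Hochberg adjusted exact permutation p over the 9 relations was at most 0.000298 with all foxes and 0.0125 without the 2 foxes. Centred within the 2 sets of foxes by 5' actin, r was 0.97 for DRA, 0.98 for DRB1 and 0.88 for DMB.

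The other relations rested more on foxes 19 and 86. DQB1 followed CD74 at an r of 0.93 (exact permutation p = 0.000719, adjusted 0.00162), DOA at 0.88 (p = 0.00397, adjusted 0.00714), DMA at 0.81 (p = 0.0112, adjusted 0.0168) and DQA1 at 0.78 (p = 0.0155, adjusted 0.0199). Their rho was 0.88, 0.90, 0.88 and 0.83. Without foxes 19 and 86 their r was 0.76, 0.54, 0.60 and 0.33, and none of these passed (adjusted exact permutation p of 0.181 to 0.631). Centred within the 5' actin sets, r was 0.91 for DQB1, 0.83 for DOA, 0.74 for DMA and 0.69 for DQA1. Of these the DMA and DQA1 relations did not pass (adjusted approximate permutation p of 0.0615 and 0.0676). DOB and CIITA did not pass with all foxes, at an r of 0.63 and 0.35 (adjusted exact permutation p of 0.127 and 0.373), and CIITA had an r of -0.26 without foxes 19 and 86.

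DQA1 parted from CD74 in 1 fox, read on 1 array. Of the 8 arrays, that of fox 55 had the lowest 5' actin signal (1354) and the highest background (16.6). Whether this has a part in the gap was not tested. Relative to the mean of the 8 foxes, fox 55 had 0.45 of CD74 but -0.92 of DQA1 on the log2 scale, a gap of -1.37, against 0.074 to 0.42 in the other affected foxes and 0.038 to 0.26 in the unaffected foxes. The second DQA1 probe set gave a gap of -1.80 in fox 55, against -0.038 to 0.43 in the other affected foxes and -0.26 to 0.89 in the unaffected foxes. Against its partner DQB1, DQA1 of fox 55 stood at -0.94, with -0.29 to 0.33 in the other affected foxes and -0.20 to 0.42 in the unaffected foxes. By its brightest probe set, every other gene also stood below CD74 in fox 55. The gap was -0.17 for DRB1, -0.26 for DMB, -0.30 for DRA, -0.43 for DQB1, -0.48 for DOB, -0.54 for DOA and -0.62 for CIITA. Among the dimmer genes, fox 19 stood above CD74 in CIITA (1.58) and DOB (1.39), and fox 757 below it in CIITA (-1.09). The first DMA probe set stood below CD74 in fox 55, at -0.91, with -0.17 to 0.83 in the other affected foxes and -0.25 to 0.23 in the unaffected foxes. The second DMA probe set did not repeat this, at -0.11 in fox 55 and -1.16 in fox 381. Without fox 55, r between DQA1 and CD74 was 0.99 over 7 foxes, and that between the first DMA probe set and CD74 was 0.93. Fox 55 was left out because its values were seen to lie apart, so these r are descriptions and no test.

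**Figure D3:**
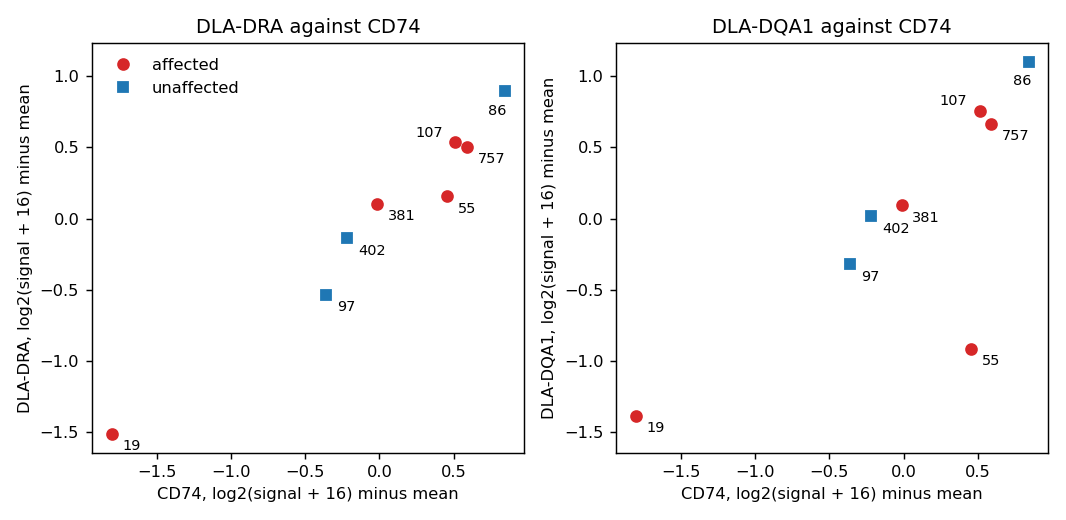
DLA-DRA (left) and DLA-DQA1 (right) against CD74 in the 8 foxes, each as log2(signal + 16) minus its mean, with affected foxes as red circles, unaffected foxes as blue squares and fox numbers beside them. The DRA points lie along a line, and fox 55 falls away from the others for DQA1, at -0.92 beside a CD74 value of 0.45.

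The mean of the 10 genes' centred log2 levels was used to find the genes most alike in pattern. It was -1.17 in affected fox 19, -0.054 to 0.46 in the other affected foxes, and 0.93, -0.48 and -0.030 in unaffected foxes 86, 97 and 402. Of 10838 other genes 457, or 4.22%, had an r of at least 0.8 to it over the 8 foxes. The 10 highest were CLEC12A, a lectin receptor of myeloid cells (0.983), IFI30, the lysosomal thiol reductase that unfolds antigens for class II loading (0.979), GPR171 (0.978), TGFBR2, a TGF-beta receptor (0.977), AIF1, a protein of macrophages (0.974), C1S, a complement protease (0.969), ARHGDIB (0.964), KEL (0.959), CORO1A, an actin-binding protein of leukocytes (0.959) and C17H1orf54 (0.958). IFI30 read 332 in fox 19 and 1354 in fox 86, and averaged 817 ± 287 in affected and 875 ± 426 in unaffected foxes (SD, n = 5 and n = 3). AIF1 read 78.5 in fox 19 and 696 in fox 86. These values of r are descriptions over 8 foxes, and the genes were picked for them. Without foxes 19 and 86, r was 0.98 for GPR171 and C17H1orf54, 0.93 for CLEC12A, and 0.92 for IFI30 and TGFBR2. It was 0.90 for AIF1, 0.86 for C1S, 0.84 for ARHGDIB and CORO1A, and 0.77 for KEL.

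Genes that act around class II were then compared between the groups, in lists with 1 probe set per gene. Of 123 genes tested in 12 lists, 0 passed in limma (smallest adjusted p 0.99992), where 0% of all probe sets tested passed. In limma 3 of the 123 (CD68, LGMN and RFXAP) had an unadjusted p under 0.05, as had 2.69% of all probe sets tested. The groups did not overlap in 3 of the 123 (CD68, RFXAP and TIE1), and in 2.43% of all probe sets tested. Over all probe sets tested, 56.5% had a lower mean in affected foxes and the median difference was -0.037. The counts of higher means in each list stand beside these values. Among transcription factors of class II 7 of 11 had higher means in affected foxes (median 0.097). RFXAP, a subunit of the RFX complex, read 231, 214, 131, 182.02 and 142 in affected foxes 19, 55, 107, 381 and 757, against 105, 106 and 114 in unaffected foxes 86, 97 and 402, so its groups did not overlap, and it differed by 0.63 ± 0.21 (SE, unadjusted p = 0.0129 in limma). Its second probe set differed by -0.088. USF1, which binds 1 of the CIITA promoters, differed by -0.14, or 0.0017 without affected fox 19, and its second probe set by 0.24. CREB1, which binds the X2 box, differed by 0.24, or 0.38 without unaffected fox 86.

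In the interferon gamma axis, the main inducer of CIITA outside professional presenting cells, 4 of 13 genes had higher means (median -0.092). CXCL10, a chemokine induced by interferon, differed by -0.92 ± 0.50 (SE), or -0.48 without unaffected fox 86, and its second probe set by -0.41. IRF8, a factor of myeloid cells, differed by -0.34, with 2 affected foxes below background, or by -0.15 without affected fox 19 and -0.083 without unaffected fox 86. IDO1, which breaks down tryptophan, differed by 0.48, or 0.81 without unaffected fox 86. In lysosomal processing, the proteases and partners that prepare peptides, 8 of 10 had higher means (median 0.17). LGMN, which starts the cleavage of antigens, averaged 563.1 ± 70.0 in affected and 391 ± 119 in unaffected foxes (SD, n = 5 and n = 3), a difference of 0.54 ± 0.21 (SE, unadjusted p = 0.0282 in limma), and CTSD, an aspartic protease, differed by 0.42 ± 0.21 (SE), or 0.26 without unaffected fox 86, and its second probe set by 0.079. IFI30 differed by -0.092, but by 0.20 without affected fox 19 and 0.27 without unaffected fox 86, and LAMP2 by -0.012.

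Class I presentation genes had higher means in 5 of 19 (median -0.058). DLA88, a class I heavy chain, differed by -0.12, but by 0.031 without affected fox 19. The 2 probe sets of NLRC5, the class I transactivator, went opposite ways, at -0.11 and 0.28, as did those of PDIA3, of the loading complex, at 0.15 and -0.27. PSMB10, an immunoproteasome subunit, differed by 0.11, or by 0.29 without affected fox 19 and 0.38 without unaffected fox 86. Co-stimulation and turnover genes had higher means in 6 of 9 (median 0.086). ICAM1, an adhesion molecule of the T cell contact, read 358, 3080, 911, 1023 and 1352 in affected foxes 19, 55, 107, 381 and 757, against 717, 431 and 693 in unaffected foxes 86, 97 and 402. It differed by 0.82 ± 0.54 (SE), or 1.21 without affected fox 19, and fox 55 read highest. CD80, a ligand of CD28, followed the class II mean at an r of 0.95 and was below background in fox 19. It differed by -0.11, but by 0.081 without affected fox 19 and 0.19 without unaffected fox 86.

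Mean levels of immune cell marker lists moved with class II from fox to fox, while single markers differed. To the class II mean, 6 of 11 T cell and 6 of 13 macrophage genes had an r of at least 0.8. So did 2 of 6 B cell and 2 of 7 dendritic and Langerhans cell genes. Median r was 0.89, 0.57, 0.78 and 0.70, beside 0.57 for fibroblast and 0.58 for endothelium genes. FCER1A of the dendritic list (-0.59) and FCRLA of the B cell list (-0.29) had a negative r, and CD163 of the macrophage list had 0.11. The T cell list (11 genes) had a mean level that followed CD74 at an r of 0.91 (exact permutation p = 0.000298, adjusted 0.00119 over 12 lists) and of 0.95 without foxes 19 and 86, the macrophage list (13 genes) at 0.82 (adjusted exact permutation p of 0.00119) and 0.94, the B cell list (6 genes) at 0.76 (adjusted exact permutation p of 0.0390) and 0.90, and the dendritic and Langerhans cell list (7 genes) at 0.81 (adjusted exact permutation p of 0.0390) and 0.94. Their Spearman's rho was 0.98, 0.90, 0.95 and 0.95, and r centred within the 5' actin sets was 0.89, 0.76, 0.66 and 0.74. Of the centred relations those of the B cell and the dendritic and Langerhans cell lists did not pass (adjusted approximate permutation p of 0.110 and 0.0573). CD3G, a chain of the T cell receptor complex, read 7.5, 57.5, 67.4, 42.1 and 77.8 in affected foxes 19, 55, 107, 381 and 757, against 205, 25.4 and 30.3 in unaffected foxes 86, 97 and 402, the same extremes as CD74. In fox 19 CD3G was below its array's background of 9.88. Of the 11 T cell genes 10 were highest in fox 86 and 9 lowest in fox 19, and 5 were below background on at least 1 array.

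The keratinocyte list (8 genes) ran against CD74, at an r of -0.91 (adjusted exact permutation p of 0.00167) and -0.82 without foxes 19 and 86 (adjusted exact permutation p of 0.0938). Centred within the 5' actin sets its r was -0.88. Its summed signal was 22653 to 42207 in affected foxes, with 12842 to 45019 in the unaffected foxes. Its mean was 1.35 in affected fox 19, -0.82 to 0.47 in the other affected foxes, and -1.20 in unaffected fox 86. KRT1, a keratin of cornifying epithelium, read 1042 in affected fox 19 and 4.41 to 36.6 in the other affected foxes, against 4.39 to 17.04 in unaffected foxes. It was above background in only 2 affected foxes and 1 unaffected fox, and its high value is part of the list's mean in fox 19. The interferon gamma, lysosomal, class I and co-stimulation lists followed CD74 at 0.88, 0.82, 0.94 and 0.90 (adjusted exact permutation p of 0.00119 to 0.0113), and at 0.84, 0.92, 0.87 and 0.95 without those foxes, where the interferon gamma and class I lists did not pass (adjusted exact permutation p of 0.109 and 0.0938). The lists of class II transcription factors, fibroblasts and endothelium did not pass by Pearson's r, at 0.66, 0.57 and 0.68 (adjusted exact permutation p of 0.0752 to 0.121), while endothelium passed by rank, at a rho of 0.79 (adjusted exact permutation p of 0.0335). Whether the makeup of the pieces has a part in the class II spread was not tested.

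**Figure D4:**
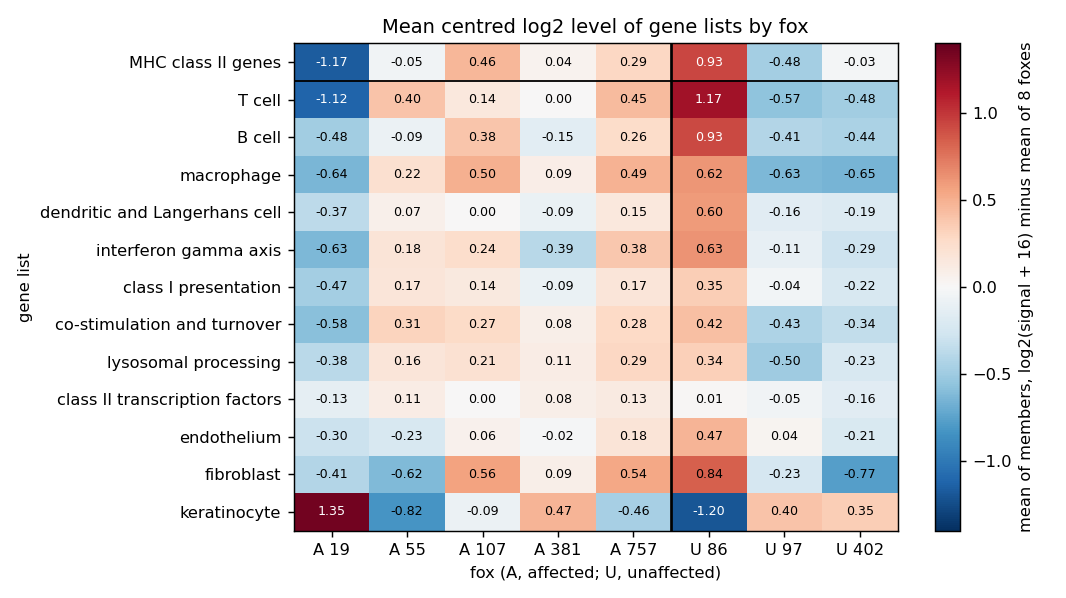
Mean level of the 10 class II genes (top row) and of 12 gene lists in each fox, as the mean of log2(signal + 16) minus its mean over the 8 foxes, with affected foxes (A) left of the line and unaffected foxes (U) right of it. Fox 19 has the lowest class II and T cell values (-1.17 and -1.12) and the highest keratinocyte value (1.35), and fox 86 the reverse.

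The marker lists were also set between the groups, and 0 of their genes passed in limma (smallest adjusted p 0.99992). In the macrophage list 12 of 13 genes had higher means in affected foxes (median 0.32). Its summed signal was 1638 to 4851 in affected foxes, against 1865 to 5833 in unaffected foxes. The list's mean level was -0.64 to 0.50 in affected foxes, against 0.62, -0.63 and -0.65 in unaffected foxes 86, 97 and 402. CD68, a lysosomal protein of macrophages, differed by 1.07 ± 0.35 (SE, unadjusted p = 0.0119 in limma), and its second probe set by 0.31. AIF1 differed by -0.10, but by 0.28 without affected fox 19 and 0.54 without unaffected fox 86. T cell genes had higher means in 4 of 11 (median -0.050, summed signal 234 to 1182 in affected foxes, against 424 to 2048 in unaffected foxes), B cell genes in 2 of 6 (-0.088, 256 to 456 against 208 to 644) and dendritic and Langerhans cell genes in 3 of 7 (-0.068, 313 to 450.1 against 345 to 686). FCER1A, a receptor subunit of mast cells and some dendritic cells, differed by -0.65, or -1.07 without unaffected fox 86. ITGAX, CD11c of dendritic cells, differed by 0.14, or 0.32 without affected fox 19 and 0.48 without unaffected fox 86. Keratinocyte, fibroblast and endothelium genes had higher means in 4 of 8, 6 of 9 and 2 of 9 (medians 0.13, 0.064 and -0.18). No tested marker was below background on all 8 arrays.

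Sex was compared last. The disease effect in females minus that in males was above 0 in 17 of the 19 probe sets, with a median of 0.72 on the log2 scale, and none passed in limma (adjusted p 0.99995 for each, unadjusted p from 0.284), where 0% of all probe sets tested passed. For CD74 it was 1.03 ± 1.19 (SE). Females against males, 16 of the 19 had the higher mean in females and none passed in limma (adjusted p 0.99994 for each), where 0.00388% of all probe sets tested passed. For neither count of direction was the share over all probe sets tested computed. The 19 probe sets varied together (median r of 0.81 over their pairs), so neither is a count of independent results. Among males alone the median difference of affected from unaffected foxes was -0.51, and fox 86 is 1 of the 2 unaffected males. A single unaffected female leaves the difference with no spread of its own in that group.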

How the data were processed

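Gingiva of 8 foxes was measured on 1 array each. The values used are linear intensity as deposited, made with MAS5 according to the submitters' processing notes. Its settings were not given in the sources used here. No further normalization was applied. The mean trimmed by 2% at each end was 150.0 on every array. Control probe sets (111) and the dimmest 40% by mean signal were left out. Values were taken as log2(signal + 16), which shrinks differences of dim probe sets, and groups were compared with limma 3.58.1 in R 4.3.3 (lmFit, eBayes, Benjamini-Hochberg over 25754 probe sets, group as the only term). Where 1 value stands for a gene, its brightest probe set was taken. Correlations used exact permutation over the 40320 orders of 8 foxes or 720 of 6 foxes. Values centred within the 5' actin sets were permuted over all 8 foxes and not within each set, so their permutation p is approximate. Background on an array is the 95th percentile of 42 bacterial probe sets. The number of arrays limits precision: on simulated arrays of affected against unaffected foxes over 25754 probe sets, 33.1%, 82.7% and 96% of changes by 1, 2 and 3 on the log2 scale were recovered. The changed probe sets were drawn from all tested, with a median standard deviation within groups of 0.32, against 0.82 for the class II probe sets. These shares therefore do not hold for the class II genes, for which recovery was not computed.

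Named from the lists were at most 2 genes per direction with the smallest p, and in the search for like patterns the 10 with the highest r, passing over LOC and ENSCAFG symbols and receptor segments. Of 166 listed symbols the annotation holds 143, and 123 were tested, in 12 lists. Lists share some genes, among them CD274, which stands in the interferon gamma and co-stimulation lists. Probe sets were named from the platform annotation, which gave 1 symbol for 29254, several for 439 and none for 13231. The members and lists were chosen with earlier results of these data known. Alternatives covered the offset, normalization, filter, sex, the 5' actin sets and each fox left out.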

Additional observations from a re-analysis of the deposited data

Results flagged for a closer look

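Among the 5 affected foxes, fox 19 lay apart from the other 4 by most of the group's range in 6 class II probe sets. The gap to its nearest neighbour, as a share of the range, was 0.748 and 0.797 in 2 CD74 probe sets, 0.789 and 0.897 in both DLA-DRA probe sets, 0.873 in DRB1 and 0.764 in DQB1, where Dixon's test at 95% asks for 0.71 with 5 samples. The class II mean, at 0.684, was not flagged. Nor were the other class II probe sets, with 0.220 and 0.096 for the first and second DQA1 probe sets. Fox 55 lay apart in the gap of DQA1 to CD74, at 0.808 for the first and 0.792 for the second DQA1 probe set. Chance marks about 1 in 20 groups in this way, 22 were looked at, and the class II genes are not independent of each other. Gaps to CD74 were put to Dixon's test for the 2 DQA1 probe sets alone and not for the other genes. Their 2 flags are therefore a description of fox 55, to which the rate of 1 in 20 does not apply.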

How the results depend on the processing

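The count of class II probe sets past the threshold was 0 in limma under every alternative run, so no call was gained or lost. The number with a lower mean in affected foxes, 18 of 19, was 17 to 19 under both other offsets, quantile normalization, no filter, sex as a covariate and males alone. It was 10 with the 5' actin sets as a block, 3 within the foxes of high 5' actin, and 6 to 19 when each fox was left out, where it was 7 without affected fox 19 and 6 without unaffected fox 86. The median difference ran from -0.49 to 0.24 over single foxes left out. With an offset of 1 the second DOA probe set differed by 0.0083, and with sex as a covariate the second CIITA probe set by -0.0048. Signs also turned with the actin block in CD74 (0.054, 0.075 and 0.18), DMB (0.082), DOA (0.15), DRA (0.075 and 0.090) and DRB1 (0.13). Within high 5' actin they turned in CD74 (0.20, 0.31 and 0.31), DMA (0.47 and 0.26), DMB (0.23, 0.30 and 0.29), DOA (0.17), DQA1 (0.19 and 0.32), DQB1 (0.16), DRA (0.34 and 0.50) and DRB1 (0.37). Within low 5' actin they turned in CD74 (0.0015), CIITA (-1.03) and DOA (0.12). Over single foxes left out, the 3 CD74 probe sets ran from -0.56 to 0.23, -0.37 to 0.30 and -0.34 to 0.45, the second CIITA from -0.36 to 0.38, DMA from -0.42 to 0.060 and -0.63 to 0.22, and DMB from -0.71 to 0.31, -0.70 to 0.27 and -0.49 to 0.45. The second DOA ran from -0.45 to 0.56, DOB from -0.53 to 0.17, DQB1 from -0.62 to 0.39, DRA from -0.42 to 0.29 and -0.52 to 0.42, and DRB1 from -0.22 to 0.34. Relations with CD74 that passed numbered 7 of 9 with all foxes and 3 without the 2 farthest foxes, where CIITA had an r of -0.26. The cause of these turns was not tested. No paired analysis was possible because the fox numbers are not shared between the groups. The sex difference of the disease effect could not be fitted in males alone.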
